A study of Homo sapiens with 2 samples.

Results

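The genes described here encode proteins of the U2 small nuclear ribonucleoprotein (snRNP) and proteins that recognise the branch site: SF3B1, SF3B2, SF3B3, SF3A1, SNRPA1, DDX46, U2SURP, SF1, PUF60 and U2AF2. These 10 members, of 19987 protein-coding genes in the RefSeq table, were looked up by their NCBI gene numbers in a list of HITS-CLIP peaks, and an interval was counted for a gene when its midpoint lay inside the gene's span. They held 6 of the 1406 distinct intervals of the list. HITS-CLIP fixes RNA to the proteins that touch it with ultraviolet light, pulls down 1 protein with an antibody, and sequences the short RNA fragments (tags) that come with it. The antibody was against SF3B1, and the 2 libraries were biological duplicates of MDA-231-LM2, a lung-metastatic derivative of the MDA-MB-231 breast cancer line, untreated as far as the labels say. The extract protocol in the labels writes SNRBP2 where the title and antibody say SF3B1, and this discrepancy was not resolved. The study had 1 group, with no input, no control antibody and no transcript levels, and the deposited list pools both libraries. The values below therefore have no replicate error, and none was tested against chance.

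The U2 snRNP pairs its RNA with the branch site of an intron, and the branch site adenosine then attacks the 5′ splice site. SF1 and the U2AF heterodimer mark the branch site and the polypyrimidine tract first. The SF3a and SF3b complexes then hold the duplex of U2 RNA and intron. The intervals reported here are places where the transcripts of these same genes were recovered with the SF3B1 antibody, so they concern the RNA of the genes and not the proteins they encode.

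Intervals were listed for 5 of the 10 members, against 5.29% of all protein-coding genes. The 5 were SF3B1, SNRPA1, DDX46, SF1 and U2AF2. SNRPA1 held 2 intervals and each of the others 1. Among the protein-coding genes with an interval, 871 held 1 and 137 held 2. SF3B2, SF3B3, SF3A1, U2SURP and PUF60 held 0. All 10 members have spans between 12972 and 72343 nt, and in the 8588 protein-coding genes of that range of span the share with an interval was 5.95%. Transcript levels were not available, so both shares, like those of all protein-coding genes below, may include genes not transcribed in these cells. The members had been chosen with results of these data known, so their count is a description.

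**Figure D1:**
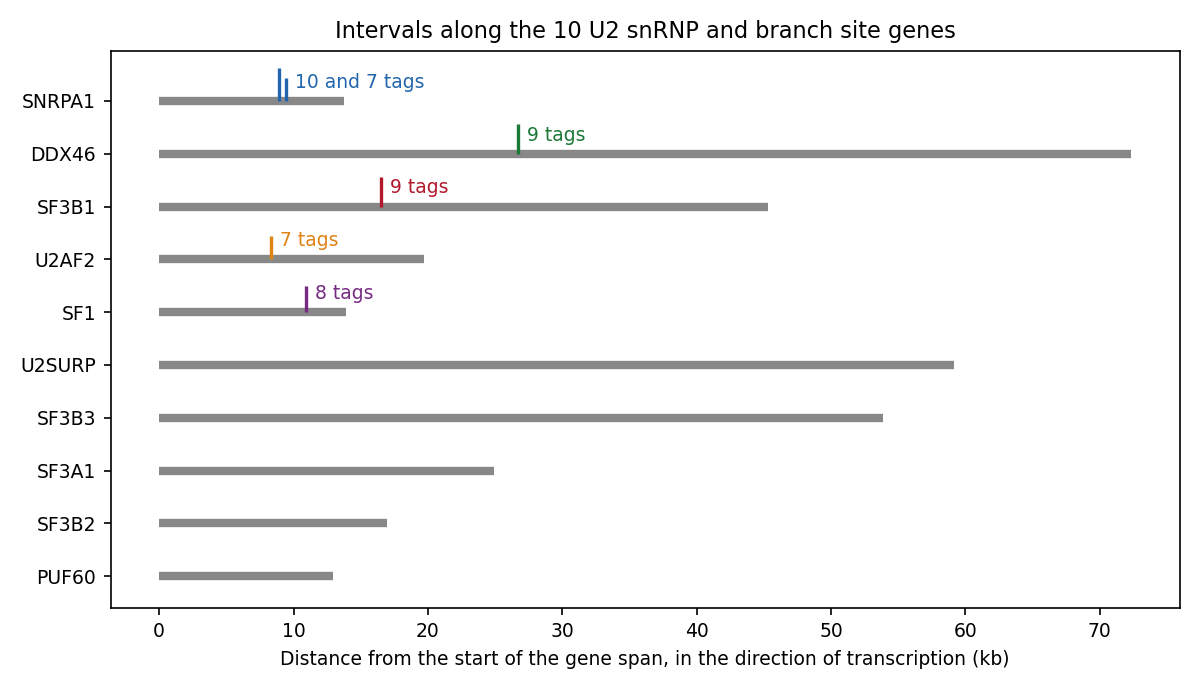
Each grey bar is the RefSeq span of 1 gene in kb from its start. Coloured lines mark the midpoints of the 6 intervals, scaled by height and labelled in pooled tags. Intervals stand on SNRPA1, DDX46, SF3B1, U2AF2 and SF1, and none on U2SURP, SF3B3, SF3A1, SF3B2 or PUF60.

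SF3B1 encodes the scaffold of the SF3b complex that encloses the branch site duplex, and is the protein the antibody recognises. Its gene lies on chromosome 2 from 197389784 to 197435093 (hg38, as for all positions). The single interval on it ran from 197418584 to 197418626 on the minus strand, 43 nt wide, with a height of 9 pooled tags at its top. Its midpoint was 16488 nt from the start of the 45310 nt span, at 36.4% of its length. The list expected a height of 0.05 tags for the gene, and gave the interval a p of 1e-100, the smallest value it holds. Of the 1306 intervals in protein-coding genes, 817 were lower, 92 had the same height and 397 were taller. The nearest other interval on the chromosome, listed under ANKRD44, was 282 kb away, so the SF3B1 interval stood alone in its gene.

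The other members of SF3b and SF3a had no listed interval. SF3B2 binds pre-mRNA next to the branch site together with SF3B4. Its gene spans 16945 nt on chromosome 11 (66052364 to 66069308), and the nearest interval, of 5 tags listed under PACS1, lay 175 kb away. SF3B3 is a scaffold of stacked beta-propellers within SF3b. Its gene spans 53853 nt on chromosome 16 (70523816 to 70577668), longer than that of SF3B1. SF3A1 is the subunit of SF3a that also contacts the U1 snRNP. Its gene spans 24907 nt on chromosome 22 (30331988 to 30356894), and the nearest interval was 1040 kb away, listed under EWSR1. The spans of the 5 members with no interval, 12972 to 59156 nt, overlapped those of the 5 with one, 13739 to 72343 nt. A gene with no listed interval may still carry tags, because the list holds significant peaks only.

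SNRPA1 encodes U2-A′, a leucine-rich repeat protein that binds a stem-loop of the U2 RNA together with SNRPB2. It was the member with a pair of intervals, and with the tallest. The gene lies on chromosome 15 (101281510 to 101295248, minus strand). The upstream interval, 101286302 to 101286343, was 42 nt wide and had a height of 10 tags and a listed p of 1.26e-07. The downstream one, 101285788 to 101285830, was 43 nt wide and had 7 tags and a listed p of 0.0147. They were 471 nt apart, at 65.0% and 68.7% of the span. The expected height of 0.16 tags was shared by both, so the listed p-values differed with the 3 tags between their heights. No other gene of the RefSeq table overlapped either interval, and this held for all 6 member intervals. SNRPB2, the partner of U2-A′, held 0 intervals.

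DDX46, the human counterpart of yeast Prp5, is a DEAD-box ATPase that acts on the U2 snRNP before it engages the branch site stably. Its span of 72343 nt on chromosome 5 (134758779 to 134831121, plus strand) was the longest among the members. It held an interval at 134785429 to 134785471, 43 nt wide and 9 tags high, with a listed p of 1e-100. The midpoint lay 26671 nt from the start, at 36.9% of the span. In height and relative position the DDX46 and SF3B1 intervals were alike, and both had the smallest p the list holds. Their expected heights were 0.04 and 0.05 tags. U2SURP, a U2-associated protein that binds CHERP and RBM17, spans 59156 nt on chromosome 3 (143001570 to 143060725) and held 0 intervals. The nearest interval was 3990 kb away, listed under MRPS22.

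SF1 encodes the branch point binding protein, which the U2 snRNP replaces. Its gene lies on chromosome 11 (64764606 to 64778542, minus strand). An interval of 43 nt at 64767594 to 64767636 had a height of 8 tags and a listed p of 0.00424. At 78.4% of the span and 3009 nt from its end, it was the member interval nearest to the end of its gene. The expected height of SF1, 0.22 tags, was the highest among the 5 members with an interval.

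U2AF2 encodes the large subunit of U2AF, which binds the polypyrimidine tract. Its gene lies on chromosome 19 (55655035 to 55674716, plus strand). An interval of 43 nt at 55663307 to 55663349 had a height of 7 tags, an expected height of 0.12 and a listed p of 0.00258. Its midpoint was 8293 nt from the start, at 42.1% of the span. The U2AF2 interval and the lower SNRPA1 interval had the same height of 7 tags, but the listed p was smaller for U2AF2, whose expected height was lower. PUF60, a polypyrimidine tract binding protein related to U2AF2, has the shortest span of the members (12972 nt on chromosome 8, 143816344 to 143829315) and held 0 intervals. The nearest interval, of 13 tags, was 97.7 kb away and listed under PLEC.

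The member intervals were of a width common in the list, of moderate height and in the inner part of the gene. Their widths were 42 nt in 1 and 43 nt in 5, against a median of 43 nt and a range of 10 to 92 nt over all intervals in protein-coding genes. Of those, 655 (50.2%) were 42 or 43 nt wide. Heights ran from 7 to 10 tags with a median of 8.5 in the members, against a median of 7 with quartiles of 6 and 10 over all intervals in protein-coding genes. An interval above 7 tags, the median of the whole list, was found in 4 of the 10 members and in 2.43% of all protein-coding genes. None of the member intervals was among the tallest: 321 intervals in protein-coding genes (24.6%) exceeded the 10 tags of SNRPA1. All 6 lay on the strand of their gene, as did all 1089 intervals in protein-coding genes whose strand was known here, so this is a property of the list.

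Along the gene, the midpoints of the member intervals lay between 36.4% and 78.4% of the span, with a median of 53.6%. Over the same 1089 intervals in protein-coding genes of known strand the median was 67.7%, with quartiles of 41.1% and 85.8%. The first 20% of the span held 0 of the 6 member intervals and 11.0% of the 1089. The part beyond 80% held 0 of the 6 and 33.3% of the 1089. With 6 intervals, a difference from these shares was not tested. The distance from a splice site or a branch site was not analysed here, since no exon annotation or genome sequence was used, and no sequence of an interval is shown for the same reason. The shortest distance from the start of a gene was 8293 nt, in U2AF2, and the shortest from its end 3009 nt, in SF1.

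Set against the expected height of the gene, the member intervals split into a pair with higher ratios and 4 with lower ones. The height was 225 times the expected one in DDX46 (200 to 257 over the rounding of the expected height) and 180 times in SF3B1 (164 to 200). In SNRPA1 it was 62.5 and 43.8 times, in U2AF2 58.3 times and in SF1 36.4 times. The median over 1258 intervals in protein-coding genes with an expected height above 0 was 167 times, with quartiles of 81.8 and 333. All member intervals were below the upper quartile. The median was also 167 times over all 1306 with the 48 intervals of expected height 0 counted as above every other. Of the 6 member intervals, that of DDX46 exceeded this median over its whole rounding range and that of SF3B1 as listed, but not at the lower end of its range. The other 4 were below it, although 4 of the 6 exceeded the median height. Those of DDX46 and SF3B1 were also the only member intervals listed at a p of 1e-100, which 242 (18.5%) of the 1306 intervals in protein-coding genes had.

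**Figure D2:**
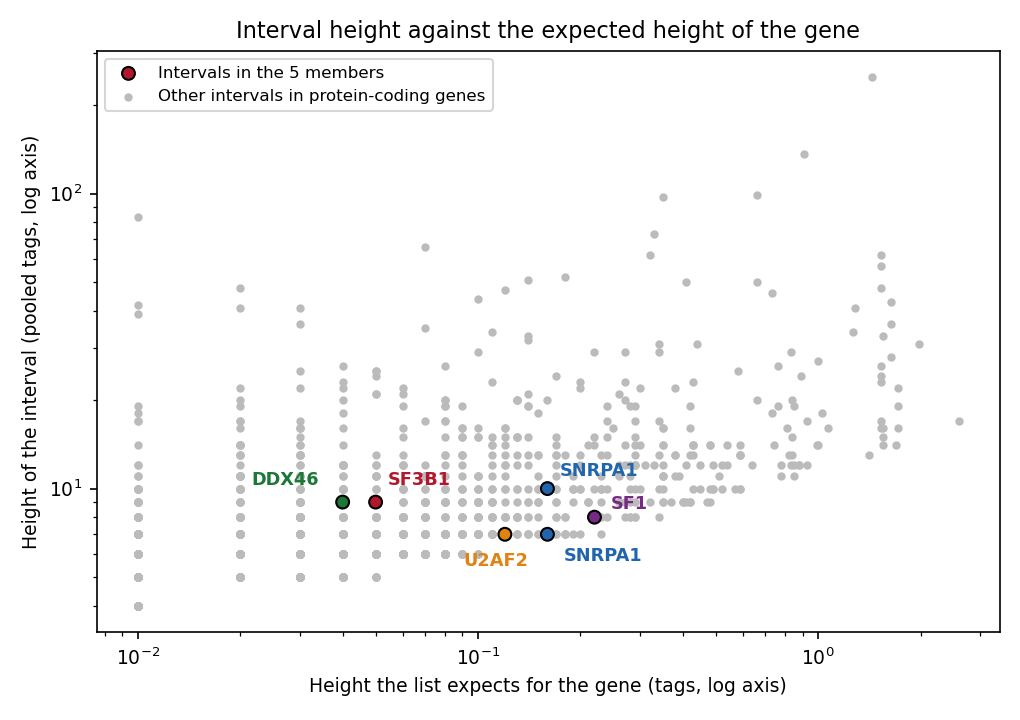
Each point is 1 interval in a protein-coding gene, with the height the list expects for its gene (tags, log axis) against its own height in pooled tags (log axis). The 48 intervals with an expected height listed as 0 are left out. The intervals of U2AF2 and SF1 and the lower one of SNRPA1 lie on the lower edge of the points, while those of DDX46 and SF3B1 lie above it.

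Of the 6 member intervals, 3 lay at the lowest height the list contains for their expected height. The list holds no peak with a p above 0.0499, so lower peaks may be missing from it. The lower SNRPA1 interval had 7 tags, and 7 was the lowest of the 9 intervals in protein-coding genes with an expected height of 0.16, of which 7 had this height and 2 were taller. The U2AF2 interval, also of 7 tags, was at the lowest height of 23 with an expected height of 0.12, of which 17 were taller. The SF1 interval of 8 tags was at the lowest height of 5 with an expected height of 0.22, the other 4 being taller. By contrast, 47 of the 66 intervals with the expected height of SF3B1 were lower than its 9 tags and 14 were taller. For DDX46, 60 of 91 were lower and 21 taller. The upper SNRPA1 interval, of 10 tags, was exceeded by 1 of the 9.

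The expected height was lowest in the 2 members with the longest spans, while SNRPA1, with the shortest span of the 5, stood below SF1. It was 0.22 tags in SF1 (13937 nt), 0.16 in SNRPA1 (13739 nt), 0.12 in U2AF2 (19682 nt), 0.05 in SF3B1 (45310 nt) and 0.04 in DDX46 (72343 nt). Across the 1057 protein-coding genes with an interval, expected height and span had a Spearman correlation of -0.74. This describes genes of 1 list and is given without a test. The product of expected height and span, in tags times nt, was 2894 in DDX46 and 2266 in SF3B1. It was 3066 in SF1, 2362 in U2AF2 and 2198 in SNRPA1. All 5 lay within the quartiles of 1117 and 3480 over those 1057 genes, whose median was 2014. If the expected height is the mean tag cover of the span, which the sources do not state, the product is the sum of tag lengths on the gene. The expected height is listed to 0.01, so the product for DDX46 may lie between 2532 and 3255. For SF3B1 it may lie between 2039 and 2492.

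**Figure D3:**
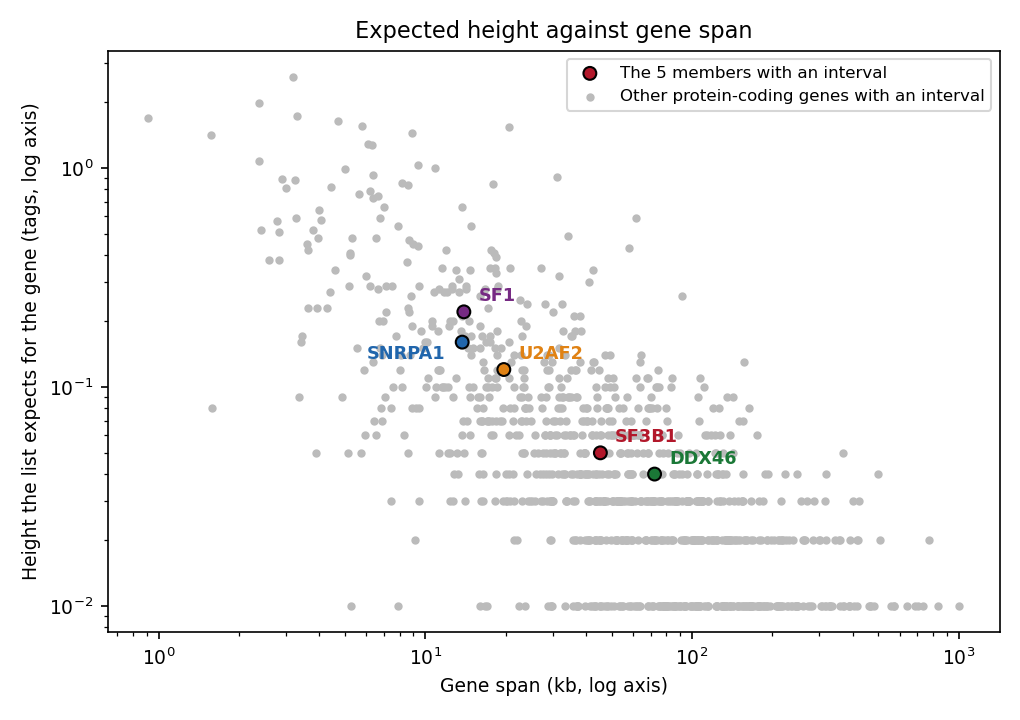
Each point is 1 protein-coding gene with an interval, with its span in kb (log axis) against the height the list expects for it in tags (log axis). SF1, SNRPA1 and U2AF2 are short with expected heights of 0.12 to 0.22 tags, and SF3B1 and DDX46 are longer with 0.05 and 0.04.

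Other genes of the same pathway were counted in lists by complex. The lists, like the members, were chosen with earlier results known. Of the 7 SF3b genes, SF3B1 alone held an interval, and of the 3 SF3a genes none did. U2 proper, made of SNRPA1 and SNRPB2, had 1 of 2. The Sm proteins, which form the ring shared by spliceosomal snRNPs, had 0 of 7, in spans of 4863 to 21207 nt. Branch site and polypyrimidine tract recognition had 4 of 7: SF1, U2AF2, RBM39 and RBM17. U2-associated and remodelling proteins had 3 of 13: DDX46, DDX42 and DHX15. Together 9 of the 39 genes of these lists held an interval, 4 of them among the 29 that are not members, against the 5.29% of all protein-coding genes. The U1 snRNP list had 1 of 8 and the tri-snRNP list 0 of 15. These counts set no list apart from another, since no difference between them was tested.

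**Figure D4:**
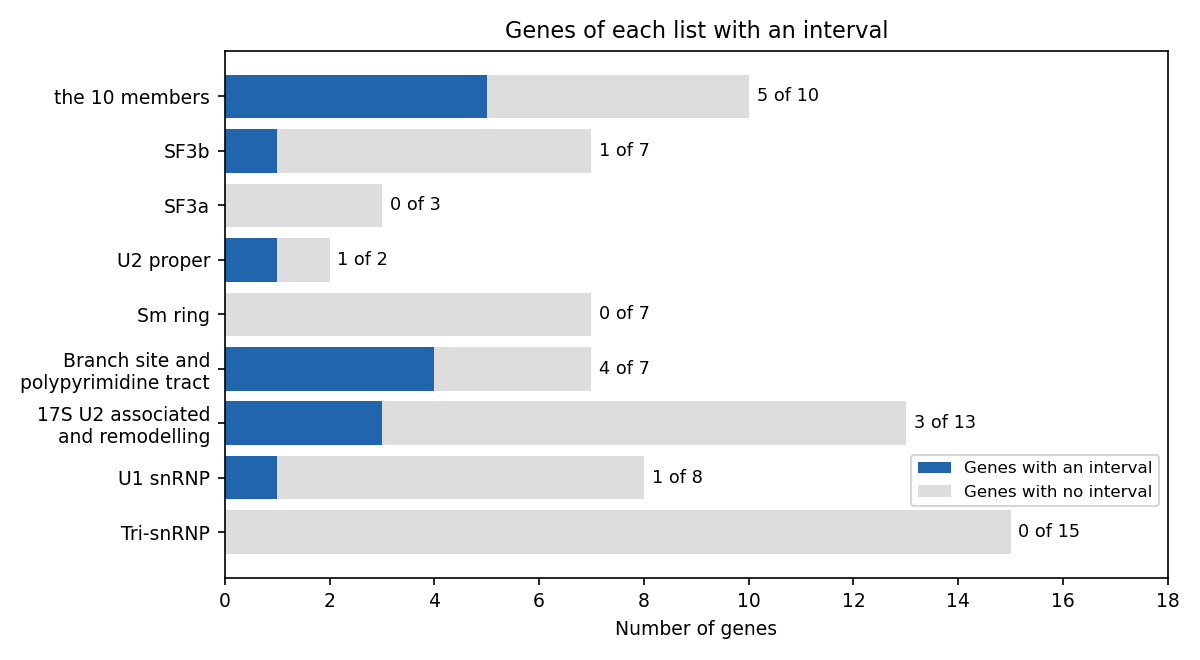
Bars give the number of genes with an interval (blue) and with none (grey) in each list, the 10 members at the top. Branch site and polypyrimidine tract recognition had 4 of 7 genes with an interval. The Sm ring had 0 of 7, SF3a 0 of 3 and the tri-snRNP 0 of 15. Among all protein-coding genes the share was 5.29%, and no difference was tested. Members are also counted in their complexes.

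RBM39, a splicing factor with a U2AF homology motif, held 3 intervals, more than any member, and its tallest exceeded all of theirs. On chromosome 20 and the minus strand, they had heights of 22 tags at 35739539 to 35739582, 14 tags at 35739018 to 35739060 and 10 tags at 35729543 to 35729586. In the direction of the intervals' strand, the first pair lay at 6.60% and 7.87% of the span and the last at 31.0%. RBM17, which binds U2-associated proteins through its own U2AF homology motif, held 1 interval of 7 tags at chromosome 10, 6115390 to 6115438 (plus strand), at 92.8% of its span. In percent of the span, the first pair of RBM39 and the interval of RBM17 thus lay nearer to an end than any member interval. The last RBM39 interval did not.

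DDX42, a DEAD-box protein that associates with SF3b, held 2 intervals on the plus strand of chromosome 17, of 7 tags at 63800433 to 63800475 and 6 tags at 63809526 to 63809555. DHX15, a helicase that takes part in spliceosome disassembly, held 1 of 6 tags at chromosome 4, 24540279 to 24540320 (minus strand). The heights in both genes were at or below the lowest of the members, 7 tags. The single interval in the U1 list was the tallest of all these lists: LUC7L3, a U1-associated protein, had 47 tags at chromosome 17, 50752146 to 50752189 (plus strand), and 1.23% of the intervals in protein-coding genes were taller.

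U2AF1, the small subunit of U2AF, held 0 intervals inside its span on chromosome 21, although the deposited list gives 11 intervals under its gene number. All 11 lay between 246137 and 17041783 nt from the gene. They were not counted for U2AF1, and why the list gives them under its number was not examined. Nor was it examined whether tags could be placed inside its span, so its 0 may not compare with that of other genes. U2AF2 is the only subunit of U2AF with an interval counted here.

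Some genes outside the lists were close to SF3B1 in height, expected height and position, though not in listed p. The comparison covered 688 of the protein-coding genes with 1 interval, those outside the lists with a known strand and an expected height above 0. Likeness was measured by log2 height, log2 expected height and position along the span, the last in percent divided by 10. The nearest were STAT6, a transcription factor of cytokine signalling, with 8 tags, an expected height of 0.07 and a position of 36.0%. DBN1, the actin-binding protein drebrin, followed with 9 tags, 0.07 and 34.4%. CPSF6, a subunit of a cleavage factor of mRNA 3′ end formation, had 7 tags, 0.06 and 33.2%. Their distances on this scale were 0.52, 0.53 and 0.55. The listed p was not part of the scale. It was 1.09e-06 in STAT6, 2.48e-09 in DBN1 and 3.62e-05 in CPSF6, against 1e-100 in SF3B1. The last is the smallest value the list holds, and 242 intervals in protein-coding genes share it. The size of the gap in listed p therefore cannot be read. Their heights did not exceed the 9 tags of SF3B1 and their expected heights were above its 0.05. Their ratios of height to expected height were therefore lower than that of SF3B1.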

How the data were processed

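The authors deposited 1 peak list made from the pooled tags of both libraries. By its name, it keeps unique tags and significant peaks and bounds each interval at a fixed part of the peak's height. The submitters' processing notes name cutadapt (version 2.3), BWA (version 0.7.17) and the hg38 build. The peak caller, threshold and annotation are not given in the sources used here. As signal, the authors deposited the peak height in tags, without normalization. It served only to describe and rank peaks within the list. A text field deposited with it holds the gene number, the expected height and a p-value, at most 0.0499. The tags and depth of each library are unknown.

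Repeats of 1 position and strand were dropped, which left 1406 intervals of 1587 rows. Spans and symbols came from RefSeq GRCh38.p14, in which all 10 members and all 62 list genes matched. Strands came from its promoter table, which holds 8 of the 10 members, all 5 with an interval among them. The 19987 protein-coding genes are those on chromosomes with at least 1 row. In them lay 1306 intervals, those at nested small RNA genes included. Ratios and products use the expected height as listed, to 0.01.

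The members and lists were chosen with earlier results of these data known. Named were the 10 members, the genes of the U2 lists with an interval, and the 3 genes most like SF3B1. LUC7L3, SNRPB2, U2AF1 and the genes of neighbouring intervals were named in addition, after their values were seen. No hypothesis test was run. The assignment of intervals to genes was tested on simulated intervals, placed inside or beyond a gene and carrying that gene's number. That checked the code and not the gene numbers of the list, such as those given for U2AF1. The work used matplotlib 3.10.9, scipy 1.17.1, pandas 2.3.3 and numpy 2.4.6 under Python 3.11.15.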

Additional observations from a re-analysis of the deposited data

Results flagged for a closer look

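The 11 intervals listed under U2AF1 that lie outside its span enter no count of the report. They are given here because they hold tags under a branch site gene's number: their heights were 4 to 11 tags with a median of 6. No peak in the whole list is below 3 tags, so these heights do not set them apart. All 11 were on the minus strand, and 6 of them lay inside another gene that the list also gives for them, namely CCT8, PAXBP1, RUNX1, SETD4 or WDR4.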

How the results depend on the processing

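The 5 members with an interval and their 6 intervals stayed at these counts with any overlap of 1 nt, with the gene number as listed and with the midpoint alone. The 6 intervals also stayed with merging within 50 nt and with repeated rows. Above the median height, 4 members with 4 intervals were left, and at a listed p under 0.01, 5 members with 5. The 9 genes of the U2 lists became 5 above the median height, by construction of a smaller list, and 10 with the gene number as listed, which adds U2AF1. Restricting to genes of like span, chosen after the data were seen, left 5 members and 9 list genes. The range was set by the members' own spans, so the count of members could not change. The median height of 8.5 tags was 9 with the tallest interval of each gene, and as a ratio to the expected height it was 60.4. Counting expected heights of 0 in the median ratio of all protein-coding intervals, also chosen after the data were seen, left it at 167. The median position of 53.6% was 53.4% by the first and 53.7% by the last base. The exon and intron alternatives were not run, since no exons were used. No paired analysis was possible because the list pools both libraries, so neither could be left out. Depth per library is unknown. The list holds significant peaks only, so tags below its threshold in the other 5 members were not detectable here.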
